A study of Mus musculus with 8 samples.

Results

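The 34 genes described here encode the enzymes and transporters that take up glucose, store and release glycogen, run glycolysis, and pass lactate and pyruvate between cells or into the mitochondrion. They were listed by gene symbol from this pathway, with earlier results of these data already known. All 34 were found among the 55291 genes of the deposited count table. They were split into 4 muscle isoforms (Pfkm, Pgam2, Eno3 and Pygm) and the other 30, called neural and glial members here. Some of these 30, such as Hk2 and Pkm, are also found in muscle. All 34 also passed the filter on low counts, which left 19470 genes for testing.

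Glycolysis splits glucose into pyruvate in the cytosol, and most of its steps are shared by several isozymes that differ between tissues. In the spinal cord, glucose enters through the transporters GLUT1 on endothelium and glia and GLUT3 on neurons, and astrocytes hold the glycogen store. Pyruvate is reduced to lactate by lactate dehydrogenase or oxidized by the pyruvate dehydrogenase complex, and lactate leaves and enters cells through the monocarboxylate transporters, of which MCT1 is known from oligodendrocytes and endothelium. Skeletal muscle uses its own phosphoglycerate mutase (PGAM2), enolase (ENO3) and glycogen phosphorylase (PYGM).

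The RNA was from the whole lumbar spinal cord of 8 male C57BL/6 mice (C57BL/6J in the study's methods) carrying the SOD1G93A transgene, a mutant human superoxide dismutase gene that causes motor neuron degeneration. The design set 4 SOD1G93A Ager fl/fl Cx3cr1 Cre/+ mice, in which Ager was deleted (E1776, E5231, E5248, E5568) against 4 SOD1G93A Ager+/+ Cx3cr1 Cre/+ mice that served as Cre-expressing controls (E5386, E5642, E6578, E6732). Values per mouse are listed in these orders throughout. Ager encodes RAGE, the receptor for advanced glycation end products, and the comparison asks how its removal from microglia alters the diseased cord. Every mouse of both genotypes carried 1 Cx3cr1 allele replaced by a tamoxifen-inducible Cre recombinase, and every mouse was given 5 daily intraperitoneal injections of 0.2 μg of tamoxifen at 3 months (12 weeks). The labels give an age of 120 days (4 months) for all 8 mice, whereas the study's text describes the tissue as taken at the humane endpoint. The Cre acts in Cx3cr1-expressing cells, which include macrophages outside the cord, and microglia supply only part of the RNA measured. Mice without the SOD1G93A transgene were not analysed here.

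Each mouse had 31148047 to 40324897 counts on genes, at which 3 counts are at most 0.0963 CPM (the count scaled to the library total), a floor for counting error only. Levels are CPM after scaling of library sizes by TMM, the trimmed mean of M values method. Ager lay between 0.889 and 1.51 CPM in Ager-deleted mice and between 1.53 and 2.41 CPM in controls. Markers of neurons, astrocytes, oligodendrocytes and microglia were detected in all 8 mice, with no gene of these 4 lists at 0. Some control libraries stood apart. Of a list of 30 skeletal muscle genes, 26 were tested and all 26 were highest in E5386 or E5642. The summed level of these 26 was between 57.4 and 73.0 CPM in Ager-deleted mice, and 1361, 2041, 55.8 and 83.5 CPM in the controls. E5386 also had 119 CPM summed over the 2 tested genes of a list of 6 adipocyte genes (at most 6.64 CPM elsewhere). Its sum of 6 Schwann cell genes was the lowest, at 120 CPM against at least 404 CPM elsewhere. E6732 had 18600 counts of the liver gene Alb (at most 30 elsewhere). Counts of calls are therefore also given without E5386 and E5642, an alternative chosen after these values were seen.

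Promoters were read from RefSeq (GRCm38.p6) for 32 of the 34 members, from 250 bases before to 50 bases after each start, and are printed here for the isozyme pairs on which the results turn. The muscle mutase Pgam2 and its widely expressed partner Pgam1 catalyse the same step, Eno3 and Pygm are the muscle enolase and phosphorylase, and Ldha is a long-known target of hypoxia signaling. Each is written 5′ to 3′ on the gene's strand. Capitals mark E-boxes (CANNTG), the binding motif of the muscle factor MEF2, and the hypoxia response core ACGTG on either strand, which overlaps the E-box CACGTG.
Pgam2, chr11:5803747-5804046, reverse strand: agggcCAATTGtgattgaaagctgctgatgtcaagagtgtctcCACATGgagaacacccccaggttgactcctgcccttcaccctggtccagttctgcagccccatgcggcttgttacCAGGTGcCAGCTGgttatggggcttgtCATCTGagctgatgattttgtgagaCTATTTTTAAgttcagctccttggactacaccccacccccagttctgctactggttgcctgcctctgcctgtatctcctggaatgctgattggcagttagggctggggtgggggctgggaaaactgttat
Pgam1, chr19:41911621-41911920, forward strand: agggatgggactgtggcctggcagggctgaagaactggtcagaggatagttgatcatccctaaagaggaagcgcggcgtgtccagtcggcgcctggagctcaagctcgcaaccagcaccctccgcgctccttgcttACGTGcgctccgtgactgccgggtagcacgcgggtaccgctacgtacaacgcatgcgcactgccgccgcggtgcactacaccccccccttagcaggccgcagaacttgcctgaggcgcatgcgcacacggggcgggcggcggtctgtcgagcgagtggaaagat
Eno3, chr11:70656926-70657225, forward strand: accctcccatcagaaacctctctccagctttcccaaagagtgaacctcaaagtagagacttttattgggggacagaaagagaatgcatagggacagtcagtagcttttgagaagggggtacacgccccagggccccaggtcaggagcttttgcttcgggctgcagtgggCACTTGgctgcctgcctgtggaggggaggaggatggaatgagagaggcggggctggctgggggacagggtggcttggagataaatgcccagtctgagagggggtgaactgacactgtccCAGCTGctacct
Pygm, chr19:6384158-6384457, forward strand: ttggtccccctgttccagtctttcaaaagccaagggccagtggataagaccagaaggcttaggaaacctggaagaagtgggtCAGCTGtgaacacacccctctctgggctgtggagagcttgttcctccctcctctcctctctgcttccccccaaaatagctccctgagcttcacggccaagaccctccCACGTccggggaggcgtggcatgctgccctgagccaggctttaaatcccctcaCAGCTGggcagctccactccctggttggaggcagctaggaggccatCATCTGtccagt
Ldha, chr7:46845554-46845853, forward strand: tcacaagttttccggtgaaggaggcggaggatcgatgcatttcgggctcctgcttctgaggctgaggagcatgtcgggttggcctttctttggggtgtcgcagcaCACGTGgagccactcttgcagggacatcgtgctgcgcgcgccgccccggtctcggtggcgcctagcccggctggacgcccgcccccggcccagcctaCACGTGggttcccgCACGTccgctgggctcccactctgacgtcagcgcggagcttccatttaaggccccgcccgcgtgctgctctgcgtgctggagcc

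The Pgam2 window held 5 E-boxes and the only MEF2 match among the 48 member promoters, with no ACGTG. Pgam1 held no E-box and 1 ACGTG. The Eno3 window held 2 E-boxes and no ACGTG, and that of Pygm held 3 E-boxes and 1 ACGTG. This Ldha start held 5 ACGTG matches, counting CACGTG on both strands. CpG dinucleotides numbered 1 in Pgam2, 3 in Eno3 and 4 in Pygm, against 30 in Pgam1 and 30 in Ldha. The median was 19 over the 48 member promoters and 7 over all 32851 promoters of the same length.

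Across the members, ACGTG on either strand was in 24 of 48 promoters (50.0%), against 19.6% of all promoters. By gene, it was in a promoter of 18 of the 28 neural and glial members with a RefSeq promoter and of 2 of the 4 muscle isoforms. The GC box GGGCGG was in 50.0% of member promoters and 35.7% of all. E-boxes of any kind were in 68.8% and 72.3%, the E-box CAGCTG in 18.8% and 16.3%, the MEF2 motif in 2.08% and 3.19%, and the TATA box TATAAA in 4.17% and 13.6%. ACGTG and GGGCGG each hold a CpG, of which the median was 19 in member promoters and 7 in all promoters. The background was not matched for this. In the shares by promoter a member with several listed starts counts more than once, and 21 members had 1 listed start. These are matches of letters, and binding was not measured.

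Between genotypes, the neural and glial members differed little, and the muscle isoforms Pgam2 and Eno3 were higher in some controls. At an adjusted p of 0.05, edgeR's exact test called no member, and it called 14 of 19470 genes (0.0719%). The quasi-likelihood test of edgeR also called no member and called 1 gene (0.00514%). With dispersions estimated as common and tagwise, the exact test called 78 genes (0.401%) and 1 member, Pgam2. At an unadjusted p under 0.05, 3 members passed in the exact test (8.82%, against 4.26% of all genes), and the same 3 passed in the quasi-likelihood test, where the share of all genes was 6.71%. These were Hk1, lower in controls, and Pgam2 and Eno3, both higher. Without E5386 and E5642 none of the 34 was called in any of the 3 tests, which called 67, 1 and 88 of 20141 genes (0.333%, 0.00496% and 0.437%). None had an unadjusted p under 0.05 in the exact test (3.78% of all genes), and 1, Pfkl, had one in the quasi-likelihood test (4.22% of all genes). The genotypes did not overlap in 1 member, Hk1 (2.94%, against 3.88% of all genes), and in 7 without E5386 and E5642 (20.6%, against 12.8% of all genes).

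Log2 fold changes are for controls over Ager-deleted mice. Over the 30 neural and glial members their median was -0.05, with 18 below 0 and 12 above, and they ranged from -0.17 to 0.18. The split was 23 below and 7 above without E5386 and E5642, 25 and 5 with a skeletal muscle score as a covariate, and 22 and 8 with library size only, where 59.2% of all genes were below 0. Over all tested genes the median was -0.01 and 52.0% were below 0. The 95% intervals of the 30 members lay between -0.43 and 0.58. Over the 4 muscle isoforms the median was 0.90, and without E5386 and E5642 it was -0.01. In the exact and quasi-likelihood tests the p-values set the genotype difference against the spread between mice within a genotype. In bulk RNA, fewer cells of a type and less RNA per cell cannot be told apart.

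**Figure D1:**
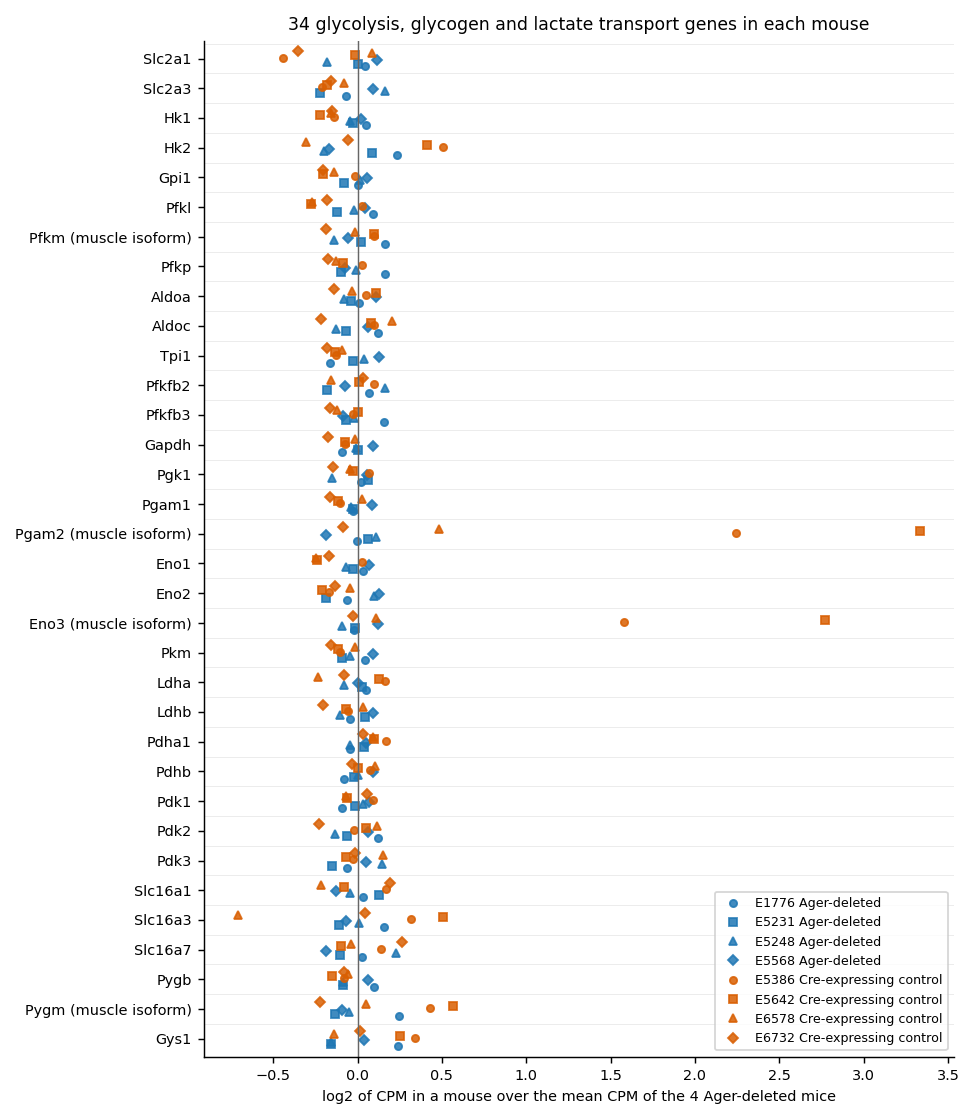
Log2 of the CPM of each of the 34 members in each mouse over the mean CPM of the 4 Ager-deleted mice; blue points are Ager-deleted mice, orange points Cre-expressing controls, and a marker shape stands for 1 mouse within its genotype. Pgam2 and Eno3 lie far to the right in controls E5386 and E5642, and the other members lie within 1 log2 unit of 0.

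**Figure D2:**
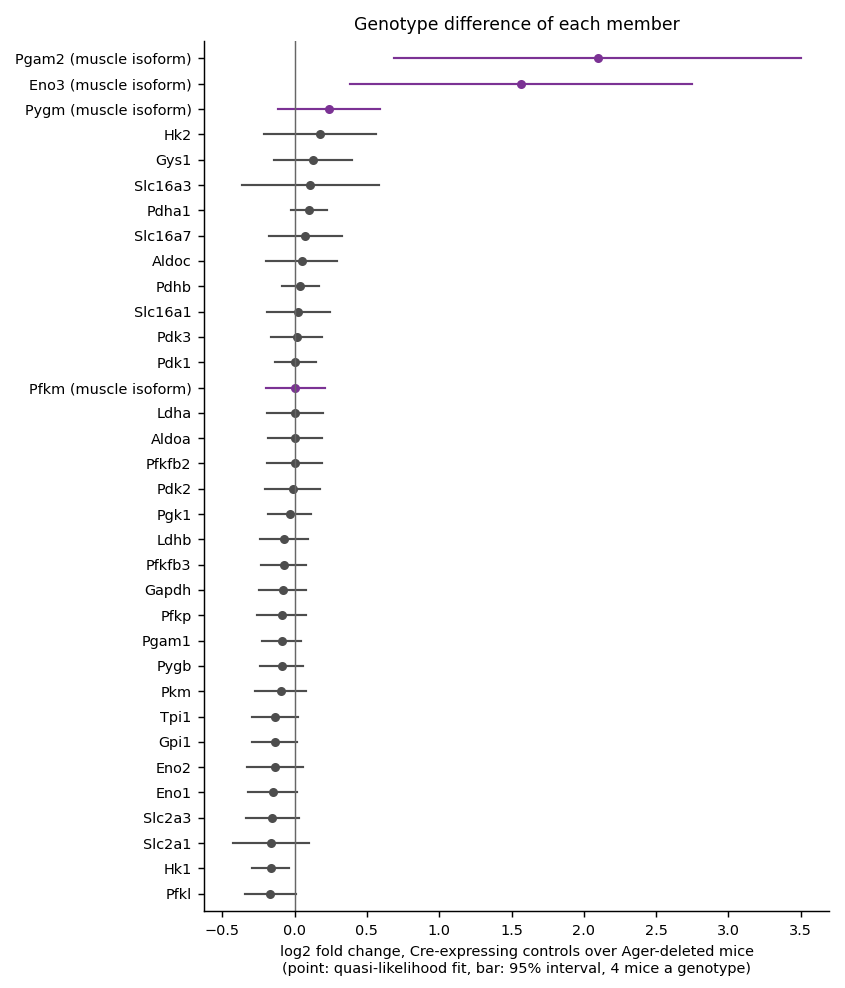
Log2 fold change of each member for controls over Ager-deleted mice, with its 95% interval from the quasi-likelihood fit (4 mice a genotype); muscle isoforms are purple. The intervals of Pgam2 and Eno3 lie above 0, that of Hk1 lies below 0, and the other 31 include 0.

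Glucose entry was led by Slc2a1, which encodes GLUT1. It lay between 186 and 228 CPM in Ager-deleted mice and between 155 and 223 CPM in controls. Slc2a3, the neuronal GLUT3, was at 82.9, 74.5, 97.4 and 92.8 CPM in Ager-deleted mice. The controls were at 75.2, 76.7, 82.3 and 78.1 CPM. They lay inside the range of the other genotype, with a log2 fold change of -0.15 (standard error 0.08) that did not pass edgeR's exact test (adjusted p = 1). Per kb of exon, Slc2a1 made up 79.8% to 85.4% of the pair in all 8 mice.

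Hk1 encodes the hexokinase of brain, which traps glucose as glucose 6-phosphate at the mitochondrial surface. Its levels were 324, 307, 303 and 317 CPM in Ager-deleted mice, a mean of 313 ± 9.68 CPM (SD, n = 4). In controls they were 284, 267, 281 and 281 CPM, a mean of 278.5 ± 7.53 CPM (SD, n = 4). The highest control was below the lowest Ager-deleted mouse, with a permutation p of 0.0286 (exact, two-sided), the smallest that 70 assignments allow. The log2 fold change was -0.17 (standard error 0.06, 95% interval -0.29 to -0.04), and edgeR's exact test gave an unadjusted p of 0.0378 and an adjusted p of 1. It was -0.15 when E5386 and E5642 were left out. Hk1 overlaps the antisense gene Hk1os, and the strand setting of the counting is not stated, so their reads may not be separated. Hk2, the inducible hexokinase also found in muscle, was highest in E5386 and E5642, at 31.4 and 29.5 CPM, against 17.9 to 26.1 CPM in the other 6 mice.

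Gpi1 (glucose 6-phosphate isomerase) and Tpi1 (triose phosphate isomerase) were measured at 422 to 507 and at 340 to 422 CPM. Their log2 fold changes were both -0.14. Pfkl, the liver type of phosphofructokinase, which commits sugar to glycolysis, was at 138, 119, 128 and 134 CPM in Ager-deleted mice. The controls were at 132, 107, 108 and 114 CPM. Of these, 3 were below all Ager-deleted mice and E5386 was not. The log2 fold change was -0.17 (standard error 0.08), and edgeR's exact test gave an adjusted p of 1. Pfkp, the platelet type, lay between 276 and 349 CPM. The aldolases Aldoa and Aldoc, the latter a brain isozyme rich in astrocytes, lay between 948 and 1127 and between 1461 and 1953 CPM, with log2 fold changes of 0.00 and 0.05. Aldoa is listed under 2 gene identifiers in the annotation, which were counted here under 1 symbol.

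The bifunctional enzymes Pfkfb2 and Pfkfb3 set the level of fructose 2,6-bisphosphate, the activator of phosphofructokinase. Pfkfb3 was at 160, 137, 141 and 135 CPM in Ager-deleted mice and at 141, 144, 132 and 128 CPM in controls. The genotypes overlapped, with a log2 fold change of -0.07 (standard error 0.07) that did not pass edgeR's exact test (adjusted p = 1). Pfkfb2 lay between 31.3 and 39.6 CPM with a log2 fold change of 0.00.

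In lower glycolysis, where ATP and NADH are made, the members of neural and glial type were Gapdh, Pgk1, Pgam1, Eno1, Eno2 and Pkm. All 6 had a log2 fold change below 0, from -0.15 (Eno1) to -0.04 (Pgk1), and none had an unadjusted p under 0.05 in edgeR's exact test. Gapdh, often used as a reference gene, lay between 684 and 777 CPM in Ager-deleted mice and between 644 and 721 CPM in controls. Pkm, the pyruvate kinase of brain and muscle, was the highest member of this stage at 1061 to 1260 CPM. The neuronal enolase Eno2 lay between 624 and 791 CPM and the widely expressed Eno1 between 257 and 318 CPM. Pgam1 lay between 69.8 and 76.2 CPM in Ager-deleted mice and between 64.0 and 72.9 CPM in controls. Gapdh has 77 near copies in the genome (at least 95% identity over 300 bases), of which 76 are in the count table and held 4.21% to 5.82% of the counts on it and them together. For 7 other members with a near copy in the count table that share was at most 0.841%. For Gpi1 and Ldhb the near copy was not found by name in the count table, so no counts on it could be read. Reads that match a gene and its copy equally well were not examined. Pgam1, which has a copy identical over 765 bases, enters the mutase shares given below.

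Lactate dehydrogenase B, which favors pyruvate formation, was the main form. Ldhb was at 441, 468, 423 and 484 CPM in Ager-deleted mice. In controls it was at 437, 433, 464 and 394 CPM, with overlap, a log2 fold change of -0.07 (standard error 0.07) that did not pass edgeR's exact test (adjusted p = 1). Per kb, Ldhb made up 85.8% to 89.5% of the pair. Ldha, which favors lactate, lay between 129 and 141 CPM in Ager-deleted mice and between 115 and 152 CPM in controls. It was highest in E5386 and E5642, at 152 and 149 CPM.

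Pdha1 and Pdhb encode the E1 subunits of pyruvate dehydrogenase, which carries pyruvate into the citric acid cycle. Pdha1 was at 194, 206, 194 and 208 CPM in Ager-deleted mice and at 225, 214, 214 and 205 CPM in controls. In 3 controls it was above every Ager-deleted mouse, and in E6732 it was not. The log2 fold change was 0.10 (standard error 0.06), edgeR's exact test gave an adjusted p of 1, and the permutation p was 0.0857 (exact, two-sided). Pdhb lay between 99.7 and 113 CPM. The kinases that switch the complex off overlapped between genotypes. Pdk2 was at 128, 113, 107 and 123 CPM in Ager-deleted mice and at 116, 122, 128 and 101 CPM in controls. Its log2 fold change of -0.01 (standard error 0.08, adjusted p = 1 by edgeR's exact test) had a 95% interval from -0.20 to 0.17. Pdk1 and Pdk3 had log2 fold changes of 0.01 each. Per kb, Pdk2 made up 64.5% to 71.1% of these 3 kinases.

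Lactate and pyruvate cross membranes through MCT1 (Slc16a1), MCT4 (Slc16a3, the exporter of glycolytic cells) and MCT2 (Slc16a7, the neuronal importer). Slc16a1 lay between 142 and 188 CPM, and both extremes were controls. Slc16a7 was at 15.7, 14.4, 18.1 and 13.6 CPM in Ager-deleted mice. Its control levels were 17.0, 14.5, 15.1 and 18.6 CPM, with a log2 fold change of 0.08 (standard error 0.11) that did not pass edgeR's exact test (adjusted p = 1). Slc16a3 had the widest interval of the neural and glial members, -0.37 to 0.58, and ranged from 4.97 CPM in E6578 to 11.5 CPM in E5642. E5386 was the next highest mouse, at 10.1 CPM. Per kb, Slc16a1 made up 91.2% to 93.9% of the 3 transporters.

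Glycogen is built by glycogen synthase (Gys1) and broken down by the brain and muscle phosphorylases Pygb and Pygm. Gys1 lay between 26.0 and 34.4 CPM in Ager-deleted mice and between 26.4 and 36.8 CPM in controls, highest in E5386 and then in E5642 (34.6 CPM). Pygb lay between 398 and 452 CPM and between 381 and 406 CPM. Pygm, which is known from astrocytes as well as muscle, was at 139, 107, 113 and 110 CPM in Ager-deleted mice. In controls it was at 158, 173, 121 and 101 CPM, highest in E5386 and E5642 and lowest of all mice in E6732. Its log2 fold change was 0.24 (standard error 0.16, 95% interval -0.11 to 0.59), and edgeR's exact test gave an adjusted p of 1. It was -0.07 when E5386 and E5642 were left out.

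Pgam2, the muscle mutase that moves the phosphate of 3-phosphoglycerate, had the largest fold change of the members. Its Ager-deleted levels were 1.68, 1.75, 1.81 and 1.47 CPM. The controls were at 7.93, 16.9, 2.34 and 1.58 CPM. E5386 and E5642 were far above every other mouse, E6578 was slightly above all Ager-deleted mice, and E6732 was inside the range of the Ager-deleted mice. The log2 fold change was 2.10 (standard error 0.63, 95% interval 0.69 to 3.50), from 57 to 548 counts per mouse. By edgeR's exact test its adjusted p was 0.190, or 0.0216 if common and tagwise dispersions were used, and by the quasi-likelihood test 0.705. The exact two-sided permutation p was 0.114. Leaving out E5386 and E5642 gave a log2 fold change of 0.22 (adjusted p = 1 by edgeR's exact test).

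Eno3, the muscle enolase, was at 8.92, 8.95, 8.49 and 9.82 CPM in Ager-deleted mice. Control levels were 27.1, 61.7, 9.75 and 8.88 CPM. Here too E5386 and E5642 were high, and the other controls lay within the range of the Ager-deleted mice. The log2 fold change was 1.57 (standard error 0.53, 95% interval 0.39 to 2.75), and the adjusted p was 0.428 by edgeR's exact test, 0.0706 by the same test if common and tagwise dispersions were used, and 0.725 by the quasi-likelihood test. Leaving out those mice gave a log2 fold change of 0.05. With the skeletal muscle score, the mean log2(CPM + 1) of the 26 tested muscle genes, as a covariate in the quasi-likelihood fit, the log2 fold change was 0.02 for Eno3 and 0.22 for Pgam2. Those mice scored 5.11 and 5.51, and the other 6 mice scored from 1.14 to 1.65.

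Pfkm, the muscle type of phosphofructokinase, did not follow this pattern. It was at 569, 514, 460 and 487 CPM in Ager-deleted mice and at 543, 544, 503 and 445 CPM in controls. The highest mouse was Ager-deleted and the lowest a control. The log2 fold change was 0.00 (standard error 0.09, 95% interval -0.20 to 0.21), and edgeR's exact test gave an adjusted p of 1.

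**Figure D3:**
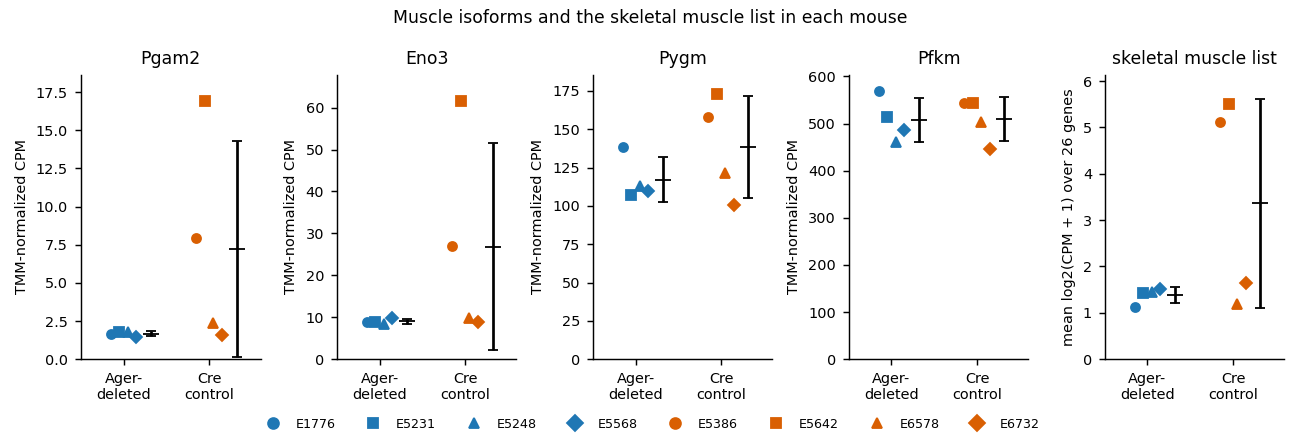
TMM-normalized CPM of the 4 muscle isoforms and the mean log2(CPM + 1) of 26 skeletal muscle genes in each mouse, on axes from 0; points are mice and black bars the mean ± SD of 4 mice. In Pgam2, Eno3 and the muscle list, E5386 and E5642 stand above the other 6 mice, whereas Pfkm lies between 445 and 569 CPM in both genotypes.

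Levels of different genes were compared as CPM per kb of merged exon length. On this scale the name of an isoform and its level in the cord parted for phosphofructokinase. Pfkm made up 76.5% to 81.1% of the 3 phosphofructokinases in each of the 8 mice, with Pfkl at 8.02% to 10.7% and Pfkp at 10.9% to 12.9%. Pgam2 made up 5.32%, 5.55%, 5.76% and 4.37% of the mutases in Ager-deleted mice. In controls its share was 21.9%, 37.7%, 7.04% and 5.51%. Eno3 made up 2.19% to 2.64% of the enolases in Ager-deleted mice and 7.42%, 16.4%, 2.77% and 2.61% in controls. The share of Pygm among the phosphorylases was 27.2% to 31.4% in Ager-deleted mice and 37.1%, 40.5%, 30.9% and 27.3% in controls. The genotypes overlapped in these shares with merged exons. With the longest transcript as length, the Eno3 share was 1.28% to 1.51% in Ager-deleted mice and 4.32%, 10.1%, 1.63% and 1.51% in controls. All 4 controls were then higher, E6732 only slightly. Hk2 made up 13.6% of the hexokinases in both E5386 and E5642, and 8.17% to 10.3% in the other 6 mice. By the longest transcript it was 7.90% and 7.87% in those mice and 4.61% to 5.88% elsewhere. Among the aldolases the leading form depended on the length used: the mean share of Aldoc in Ager-deleted mice was 64.9% with merged exons and 47.5% with the longest transcript.

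**Figure D4:**
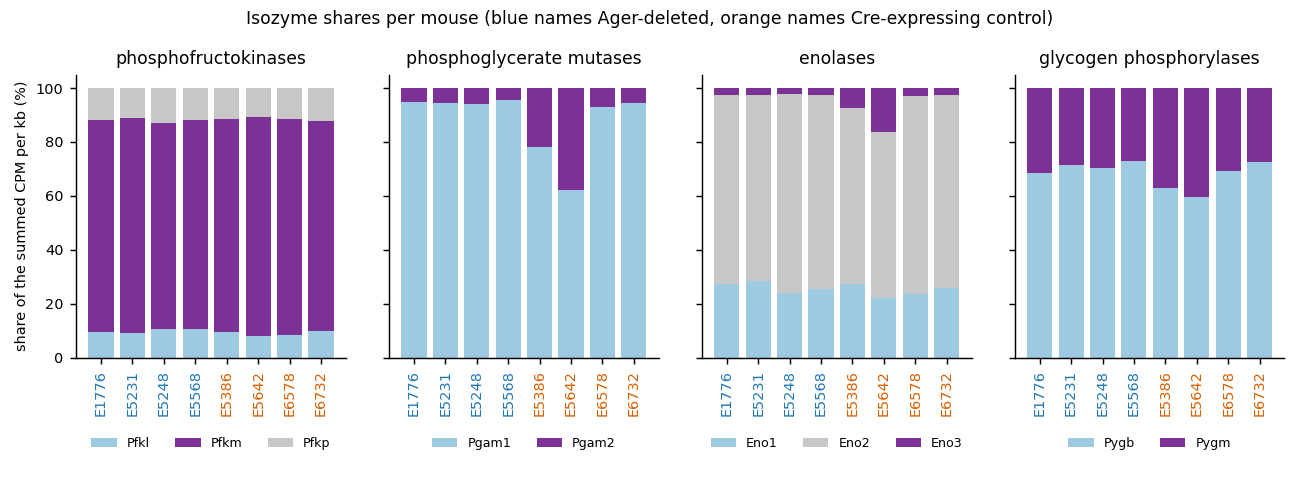
Share of each isozyme in the summed CPM per kb of its step in each mouse, in percent; muscle isoforms are purple. Pfkm fills most of the bar in every mouse, and the Pgam2 and Eno3 segments are widest in E5386 and E5642.

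Over all 8 mice, the highest mean levels per kb were those of Aldoc (529 CPM per kb), Ldhb (282) and Aldoa (281), followed by Pkm (229), Gapdh (171), Pfkm (152) and Eno2 (147). On this scale Ldhb and Aldoa were within their spread of each other, as were Pfkm and Eno2. The order depended on the length: by the longest transcript Aldoa led (673 CPM per kb), followed by Aldoc (619.8), Pkm (471), Ldhb (339.8) and Eno2 (247). The lowest levels per kb were those of Slc16a7 (1.34), Slc16a3 (1.59) and Hk2 (3.95). Together the 34 members took 0.948% to 1.08% of all counts of a mouse. Among the 30 neural and glial members, control E6732 was the lowest mouse in 11 and Ager-deleted mouse E5568 the highest in 9.

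**Figure D5:**
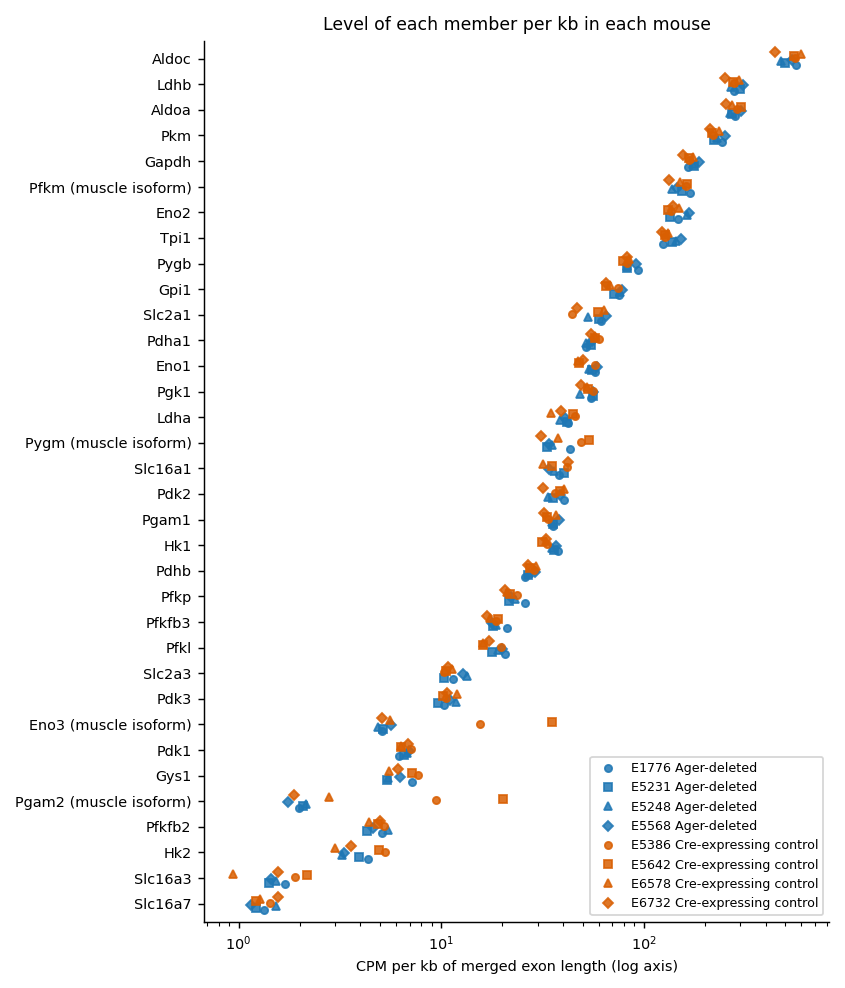
CPM per kb of merged exon length of each member in each mouse on a log axis, ordered by the mean of all 8 mice; blue points are Ager-deleted mice and orange points controls. Aldoc is highest and Slc16a7 lowest, and Eno3 and Pgam2 spread to the right in E5386 and E5642.

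Of 71 other genes of these pathways, such as the remaining isozymes, the pentose phosphate shunt and the enzymes that debranch or regulate glycogen, 64 were tested. None was called in edgeR's exact test, the quasi-likelihood test or the exact test with the other dispersion estimate (common and tagwise). In the exact test 12 of the 64 had an unadjusted p under 0.05 (18.8%, against 4.26% of all genes), and 10 in the quasi-likelihood test. Without E5386 and E5642, 2 of 65 were called in the exact test (3.08%, against 0.333% of all genes), 2 with common and tagwise dispersions and 0 in the quasi-likelihood test. The count at an unadjusted p under 0.05 was then 4 of 65 in the exact test (6.15%, against 3.78% of all genes) and 4 in the quasi-likelihood test. The median log2 fold change of the 64 was 0.03.

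In 4 of the 64 genes the mice did not overlap between genotypes (6.25%, against 3.88% of all genes), and in 10 of 65 without E5386 and E5642 (15.4%, against 12.8%). Dld, the E3 subunit shared by pyruvate dehydrogenase and its relatives, was at 109, 110, 122 and 122 CPM in Ager-deleted mice and at 139, 130, 136 and 130 CPM in controls. Ugp2, which makes the UDP-glucose for glycogen, was at 111, 121, 119 and 115 CPM and at 139, 148, 123 and 136 CPM. Both were higher in all 4 controls, with log2 fold changes of 0.21 (standard error 0.06) and 0.23 (standard error 0.07). Gbe1, the glycogen branching enzyme, was at 16.7, 17.6, 17.3 and 18.2 CPM in Ager-deleted mice and at 21.9, 20.8, 18.4 and 20.0 CPM in controls. Gsk3a, a kinase that inhibits glycogen synthase, was lower in all 4 controls, at 94.3, 91.2, 98.8 and 94.2 CPM against 102, 109, 108 and 106 CPM. In each of the 4 genes the exact two-sided permutation p was 0.0286, the smallest possible. By edgeR's exact test none was past the adjusted threshold, the lowest adjusted p being 0.675. Without E5386 and E5642 the log2 fold changes of Dld, Ugp2, Gbe1 and Gsk3a were 0.21, 0.16, 0.14 and -0.13.

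Pfkfb1, the liver and muscle form of the bifunctional enzyme, was at 0.864, 1.13, 0.734 and 0.801 CPM in Ager-deleted mice and at 2.00, 2.96, 1.01 and 1.29 CPM in controls. With all mice Pfkfb1 had a log2 fold change of 1.03 (standard error 0.32), for which edgeR's exact test gave an adjusted p of 0.457, and the log2 fold change without E5386 and E5642 was 0.40. E5386 and E5642 were the highest mice, E6578 lay within the range of the Ager-deleted mice and E6732 slightly above it.

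Hypoxia-inducible factor raises many glycolytic genes through ACGTG sites, so 10 of its targets outside glycolysis were also read. All 10 were tested, none was called, and none had an unadjusted p under 0.05 in edgeR's exact or quasi-likelihood test, with or without E5386 and E5642. Vegfa, the vascular growth factor, lay between 58.6 and 78.7 CPM in Ager-deleted mice and between 47.1 and 68.3 CPM in controls. The genotypes did not overlap in 1 of the 10 (10%, against 3.88% of all genes). This was Egln1, an oxygen-sensing hydroxylase, at 95.7 to 97.5 CPM in Ager-deleted mice and 94.4 to 95.6 CPM in controls. Its log2 fold change was -0.03. With levels renormalized without E5386 and E5642 the genotypes overlapped in all 10, whereas 12.8% of all genes did not overlap.

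The part that the skeletal muscle RNA of E5386 and E5642 has in the levels of the members there was not tested. Members that were highest in these mice included Pgam2, Eno3, Pygm, Hk2, Ldha, Slc16a3 and Gys1. With 4 mice a genotype the standard errors of the neural and glial members, 0.08 at the median, limit what differences could be seen.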

How the data were processed

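RNA from the lumbar spinal cord of 8 mice, 4 per genotype, was measured by polyA RNA-seq with a stranded kit. Per the labels, the authors trimmed reads with Trimmomatic 0.36, aligned pairs to mm10 with STAR 2.7.3a and counted them per GENCODE M25 gene with featureCounts (Subread 1.6.3). The strand setting is not given in the sources used here. The authors deposited raw counts per gene, and a table of log2 TMM-normalized CPM for 19470 genes, which was only compared with the counts: recomputed values were within 4.78e-06.

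Groups came from the genotype in the labels and columns from the mouse ID. No pair of mice shared a library (chi-square per degree of freedom at least 16.0). Counts were filtered with filterByExpr (minimum 10 counts), normalized by TMM and tested in edgeR 4.0.16 (R 4.3.3) with exactTest, which the study's methods name, after estimateDisp without a design, and with the quasi-likelihood test, which gave standard errors and 95% intervals. P-values were adjusted over all tested genes by Benjamini-Hochberg, at 0.05. Single genes were compared as log2(CPM + 1) by exact two-sided permutation of 70 assignments. The dispersion estimate that the authors used is not given in the sources used here, and the count of calls depended on it. The tests were first tested on simulated data.

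Positions and exon lengths were taken from GENCODE M21 (GRCm38, which mm10 also names), near copies from BLAST 2.17.0, and promoters from RefSeq (GRCm38.p6). Fold changes and tests are given for the 4 muscle isoforms, members with an unadjusted p under 0.05 or without overlap, and the member of each role with the smallest p. For the other pathway genes they are given for those called, those without overlap, and the 3 with the smallest p, of which 1 is not reported here. Any other gene was named after its values were seen. The members and all gene lists were chosen with earlier results of these data known. Alternatives were other dispersions, DESeq2 1.42.0, limma-voom (limma 3.58.1), other normalizations and filters, an adjusted p of 0.10, the muscle score as a covariate, a pseudocount of 0.1 CPM, another gene length, and each mouse left out in turn.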

Additional observations from a re-analysis of the deposited data

Results flagged for a closer look

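The gap between the most extreme mouse and its nearest neighbor, divided by the range of its genotype, was above Dixon's 95% critical value in 1 of 84 groups of 4 mice examined, and chance alone gives such a gap in about 1 of 20 groups. Pgam1, the widely expressed phosphoglycerate mutase, was at 76.2 CPM in Ager-deleted mouse E5568, and the other 3 Ager-deleted mice lay between 69.8 and 70.4 CPM.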

How the results depend on the processing

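The count of members called in the exact test was 0 with all 8 mice and stayed 0 in the quasi-likelihood test, DESeq2, limma-voom, the 3 other normalizations, both other filters, the muscle score as a covariate, an adjusted p of 0.10 and without E5386 and E5642. It was 1 (Pgam2) with common and tagwise dispersions, and between 0 and 2 with each mouse left out in turn (2, Pgam2 and Eno3, without E6578 and without E6732). The count over all tested genes was 14 and moved to 1 in the quasi-likelihood test, 78 with common and tagwise dispersions, 25 in DESeq2, 1 in limma-voom, 8 with CPM above 1 in at least 4 mice, 1 with the muscle score as a covariate, 48 at an adjusted p of 0.10, 67 without E5386 and E5642, and between 3 and 98 with each mouse left out. The other pathway genes called were 0, except 1 without a filter on low counts (Pck1), 2 without E5386 and E5642 (Pck1 among them), and between 0 and 2 with each mouse left out.

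The median log2 fold change of the neural and glial members stayed between -0.08 and -0.03 in every alternative. That of the muscle isoforms was 0.90, and it was -0.022 with the muscle score as a covariate, -0.013 without E5386 and E5642, and between 0.44 (without E5642) and 1.11 with each mouse left out. Of 323 refitted log2 fold changes of the 17 genes chosen by the naming rule, 14 changed sign, all in Pfkm, Pdk2 and Pygm. Of all 34 members, 7 changed sign without E5386 and E5642 (Pfkm, Pygm, Aldoa and Ldha, Hk2 from 0.18 to -0.17, Gys1 from 0.13 to -0.05 and Slc16a3 from 0.11 to -0.27), 9 with the muscle score as a covariate, and between 0 and 5 in each other alternative. With the longest transcript as gene length, 31 of 52 mean isozyme shares moved by more than the spread between mice. Pfkm went from 0.00 to -0.00081 with upper quartile, -0.023 with library size only, -0.00039 without a filter, -0.085 with the muscle score, -0.092 without E5386 and E5642, and between -0.042 and 0.063 with each mouse left out. Its level difference on the log2(CPM + 1) scale was -0.022 with library size only and between -0.043 and 0.064 with each mouse left out. Pdk2 lay between -0.061 and 0.049 with each mouse left out, and its level difference between -0.061 and 0.051. Pygm was -0.062 with the muscle score and -0.073 without E5386 and E5642. The cause of these moves was not tested. By edgeR's exact test Pgam2 had an adjusted p of 0.0164 without E6578 and 9.57e-04 without E6732, and its log2 fold change was 1.24 without E5642.

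No paired analysis was possible because the labels give the mice of the genotypes no shared replicate numbers. At this depth every member had at least 57 counts in each mouse. Counting error adds to the spread between 4 mice a genotype, most in members with few counts, such as Pgam2 (57 to 548 counts).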

Other observations

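The filter on low counts removed 7 of the 71 other pathway genes, and 5 of these 7 were raised in 1 or 2 control libraries. These 5 were chosen after their values were seen. Ppp1r3a, the subunit that ties protein phosphatase 1 to glycogen in skeletal muscle, had 94 counts in E5386 and 187 counts in E5642, and at most 4 in each other mouse. Fbp2, the fructose bisphosphatase of muscle, had 19 and 25 counts in these mice and at most 3 elsewhere. Fbp1, the liver form, had 187 counts in E6732 and at most 9 elsewhere. Pck1, a key enzyme of gluconeogenesis in liver and of glycerol synthesis in fat, had 1167 counts in E5386 and 785 counts in E6732, and at most 10 elsewhere. Gys2, the liver glycogen synthase, had 34 counts in E5386, 54 counts in E6732 and at most 4 elsewhere.

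Among the tested genes chosen in the same way, Pdk4, the pyruvate dehydrogenase kinase that rises on fasting, was at 42.2, 30.0, 36.5 and 44.2 CPM in Ager-deleted mice and at 59.5, 132, 39.5 and 30.7 CPM in controls. Slc2a4, the insulin-responsive GLUT4 of muscle and fat, was at 28.5, 27.1, 17.4 and 24.0 CPM and at 33.0, 51.8, 26.3 and 24.2 CPM. Both were highest in E5642, and neither was called by edgeR's exact test.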
